A study of Homo sapiens with 16 samples.

Results

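The regions described here are 8598 JARID2 peaks of the human liver cancer line HepG2 that lie far from protein-coding genes. They were taken from the peak list of HepG2 JARID2 replicate 1 as the peaks on chromosomes 1 to 22 and X whose edges are more than 10 kb from both ends of every protein-coding gene in the RefSeq annotation of GRCh38. They make up 8598 of the 15687 peaks of that list on these chromosomes, and 172991 peaks were called there in all 8 lists of the series. Of the 8598 peaks, called far peaks below, 4559 lay inside a coding gene and 4039 lay between coding genes. The members were chosen by the positions that MACS, the peak caller, gave them in this 1 library, so their presence and position there are given as a description and support nothing else.

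The study mapped JARID2, its partner EZH2 and the histone mark H3K27me3 by ChIP-seq, and its title concerns changes in the binding profiles of EZH2 and JARID2 in liver cancer. HepG2, a hepatocellular carcinoma line, had 2 JARID2 libraries. THLE-2, an immortalised and non-tumour liver epithelial line, had 2 libraries each of JARID2, EZH2 and H3K27me3. Each of these 8 immunoprecipitated (IP) libraries had an input library of its own, no treatment other than fixation is labelled, and EZH2 and H3K27me3 libraries of HepG2 were not analysed here. Only HepG2 JARID2 replicate 1 names a JARID2 antibody in its protocol, and the target of the other libraries was taken from their titles and antibody tags. The replicates are described as biological, each line is a single cell line rather than tissue, and p-values below measure only the spread between such samples.

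JARID2 is a DNA-binding partner of Polycomb repressive complex 2, the complex that methylates histone H3 at lysine 27 through its catalytic subunit EZH2. The complex is known for silencing developmental genes outside the tissues that use them, and it is drawn to unmethylated DNA rich in CpG dinucleotides. Such CpG-rich DNA is found mostly at the start sites of genes, but it also occurs at start sites of long non-coding RNAs (lncRNAs) and at alternative start sites inside genes.

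The rule measures distance only from the outermost ends of a gene, so far peaks inside genes can lie at alternative starts, as 255 of 4351 (5.86%) did within 2 kb, against 20.8% of all peaks of the list. 5 start windows are printed here, 4 under far peaks with many CpG and 1 with few, since CpG content differed between windows under far peaks and windows at the same distance without one. Each is the RefSeq GRCh38.p14 window from 250 bases before to 50 bases after the annotated start, written 5′ to 3′ on the strand of the gene, and capitals mark every CpG. GNB4, which encodes a G protein beta subunit, has its window at chr3:179451421-179451720 on the minus strand under the far peak of highest fold among those at a coding start. KHDC1 has its window at chr6:73263147-73263446 on the minus strand, under 1 of the 3 far peaks that both THLE-2 JARID2 lists also held. MINAR1, whose window is at chr15:79432086-79432385 on the plus strand, lay under a far peak that both EZH2 lists held. MIRLET7A1HG, the host RNA of a let-7 microRNA cluster, has its window at chr9:94166008-94166307 on the plus strand. LINC00305, at chr18:64149039-64149338 on the minus strand, is the contrast.
GNB4: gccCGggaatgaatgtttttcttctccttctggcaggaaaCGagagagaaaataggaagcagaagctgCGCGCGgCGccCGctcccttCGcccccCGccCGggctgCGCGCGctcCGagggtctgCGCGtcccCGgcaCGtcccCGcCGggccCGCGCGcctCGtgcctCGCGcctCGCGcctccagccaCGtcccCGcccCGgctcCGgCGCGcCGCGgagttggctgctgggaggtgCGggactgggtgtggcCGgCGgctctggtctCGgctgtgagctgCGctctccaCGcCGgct
KHDC1: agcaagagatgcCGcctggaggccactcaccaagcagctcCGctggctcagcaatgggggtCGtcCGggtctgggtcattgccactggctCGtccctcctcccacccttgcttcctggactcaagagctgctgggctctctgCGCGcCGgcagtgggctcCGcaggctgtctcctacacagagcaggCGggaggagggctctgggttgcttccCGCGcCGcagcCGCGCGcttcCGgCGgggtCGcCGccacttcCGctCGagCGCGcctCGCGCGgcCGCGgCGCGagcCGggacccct
MINAR1: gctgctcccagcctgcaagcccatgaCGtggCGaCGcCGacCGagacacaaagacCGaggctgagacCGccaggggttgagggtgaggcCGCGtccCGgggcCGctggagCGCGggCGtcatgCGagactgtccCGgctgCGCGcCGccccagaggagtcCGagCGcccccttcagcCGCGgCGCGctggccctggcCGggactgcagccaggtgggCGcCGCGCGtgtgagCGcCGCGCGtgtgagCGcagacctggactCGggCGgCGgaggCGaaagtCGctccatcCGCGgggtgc
MIRLET7A1HG: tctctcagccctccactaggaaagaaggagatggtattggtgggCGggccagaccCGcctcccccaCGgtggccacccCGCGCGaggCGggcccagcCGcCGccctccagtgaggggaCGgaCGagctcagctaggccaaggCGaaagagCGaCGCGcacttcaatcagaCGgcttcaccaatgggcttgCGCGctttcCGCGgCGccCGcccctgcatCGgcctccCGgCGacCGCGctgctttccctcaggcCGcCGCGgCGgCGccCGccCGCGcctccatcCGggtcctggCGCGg
LINC00305: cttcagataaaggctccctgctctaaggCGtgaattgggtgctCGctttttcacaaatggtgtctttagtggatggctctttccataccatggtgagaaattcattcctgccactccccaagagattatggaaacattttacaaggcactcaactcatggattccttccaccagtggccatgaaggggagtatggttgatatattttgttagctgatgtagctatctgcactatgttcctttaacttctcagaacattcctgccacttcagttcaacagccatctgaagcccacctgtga
The window of GNB4 holds 43 CpG and 73.7% G or C, that of KHDC1 32 CpG, that of MINAR1 42 CpG and that of MIRLET7A1HG 38 CpG. The window of LINC00305 holds 2 CpG and 44.7% G or C.

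The far peak over the GNB4 start had 73 tags and a fold enrichment of 25.03 over its input, and the THLE-2 JARID2 replicate 2 list held a peak of 7.41-fold there. The KHDC1 peak had 49 tags and 15.65-fold enrichment in HepG2 JARID2 replicate 1, against 8.38-fold and 6.47-fold in THLE-2 JARID2 replicates 1 and 2. The MINAR1 peak had 20 tags and 15.53-fold enrichment, against 8.28-fold and 6.03-fold in the EZH2 replicates and 5.85-fold in H3K27me3 replicate 2. The MIRLET7A1HG peak had 67 tags and 16.0-fold enrichment, against 6.3-fold in THLE-2 JARID2 replicate 1. The LINC00305 peak had 11 tags and 13.8-fold enrichment, against 11.32-fold in H3K27me3 replicate 2. None of these 5 peaks was met by a peak of HepG2 JARID2 replicate 2. Fold enrichment is the authors' ratio of IP over local input within 1 library, so values of different lists are set side by side and not compared.

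The depth behind these peaks was low. HepG2 JARID2 replicate 1 had 7.95 M filtered IP tags, the fewest of the 8 IP libraries, which reached 39 M, and yet it had the most peaks of the 4 JARID2 lists. HepG2 JARID2 replicate 2 had 14.6 M tags and 4075 peaks on these chromosomes, and the THLE-2 JARID2 lists had 5351 and 5526. Among the far peaks the median false discovery rate, as the authors' caller gave it, was 1.43%. Among peaks of the same kind it was 100% in HepG2 JARID2 replicate 2, and 15.79% and 44.26% in THLE-2 JARID2 replicates 1 and 2. In both EZH2 lists and both H3K27me3 lists it was 100% too, and 0 of their far peaks stood at 1% or less. The part of depth and of false discovery in the results below was not tested.

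The far share differed most between the 2 replicates of HepG2. It was 54.8% of peaks in HepG2 JARID2 replicate 1 (95% Wilson interval 54 to 55.6%) and 86.3% in replicate 2 (85.2 to 87.3%), against 69.6% and 72.5% in the THLE-2 JARID2 lists. The means were 70.5% ± 22.3 for HepG2 and 71% ± 2.05 for THLE-2 (SD, n = 2 each), a difference of -0.461 percentage points (exact permutation test over libraries, two-sided p = 1). With 2 libraries a line the smallest two-sided p this test allows is 0.3333. Leaving out HepG2 replicate 1 turned the difference to 15.3 points and leaving out HepG2 replicate 2 gave -16.2 points, so its direction rests on which HepG2 library is read. Territory more than 10 kb from coding gene ends made up 82.7% of the annotated span of these chromosomes, with assembly gaps left in.

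The far peaks lay inside genes more often than an even spread over this territory would place them. Inside genes lay 53% of them (52 to 54.1%), where 38.2% of the far territory lies. The share was 41.9% in HepG2 replicate 2 and 51% and 48.1% in the THLE-2 JARID2 replicates, and it ranged from 32.1 to 38% in the 4 EZH2 and H3K27me3 lists. Over libraries the inside share averaged 47.5% ± 7.87 in HepG2 and 49.5% ± 2.05 in THLE-2 (SD, n = 2 each), a difference of -2.09 points with a two-sided p of 1 by exact permutation. Intervals on shares cover counting error only.

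**Figure D1:**
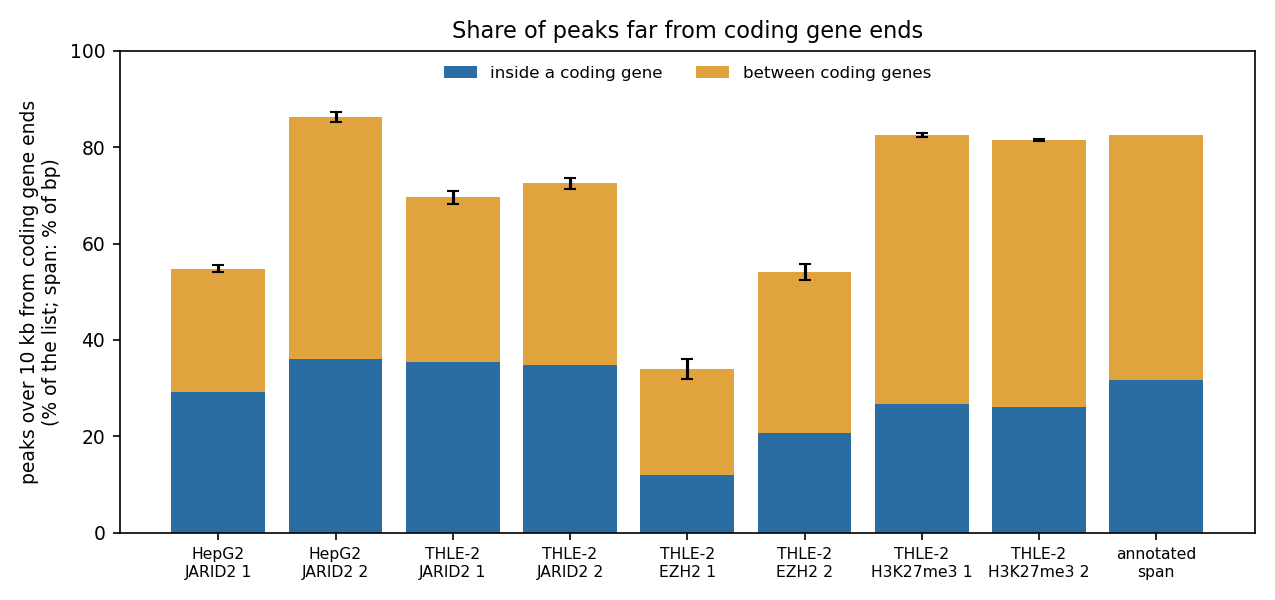
Share of peaks more than 10 kb from coding gene ends in each peak list, in percent, split into peaks inside coding genes (lower part) and between them (upper part), with 95% Wilson intervals on the total for the 8 lists; the last bar is the share of bp in the annotated span. HepG2 JARID2 replicate 1 stands at 54.8% and replicate 2 at 86.3%, on either side of THLE-2 JARID2 at 69.6 and 72.5%.

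Even beyond 10 kb, HepG2 JARID2 replicate 1 peaks thinned out steadily with distance. Their density was 6.54 peaks per Mb at 10 to 20 kb, 5.18 at 20 to 50 kb, 3.79 at 50 to 100 kb, 2.3 at 100 to 500 kb and 0.996 beyond 500 kb. In HepG2 replicate 2 the density over the same bins was 1.33, 1.38, 1.53, 1.59 and 1.05 peaks per Mb, which shows no such fall before the last bin. In THLE-2 JARID2 replicate 1 it was 2.28, 1.97, 1.69, 1.26 and 0.557, and in replicate 2 it was 1.97, 1.94, 1.85, 1.57 and 0.754. Within genes the HepG2 replicate 1 density was above that between genes in every bin, 7.09 against 5.83 at 10 to 20 kb and 2.81 against 2.05 at 100 to 500 kb. The median distance of the far peaks was 34.8 kb inside genes and 60.4 kb between genes. Over 1 Mb from any coding gene end lay 104 of them, 1.21%, where 8.39% of the far territory lies. In the other 7 lists that share ranged from 0.622 to 2.76% of their far peaks. Territory here includes assembly gaps, where no peak can be called, and their part in the fall was not tested.

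**Figure D2:**
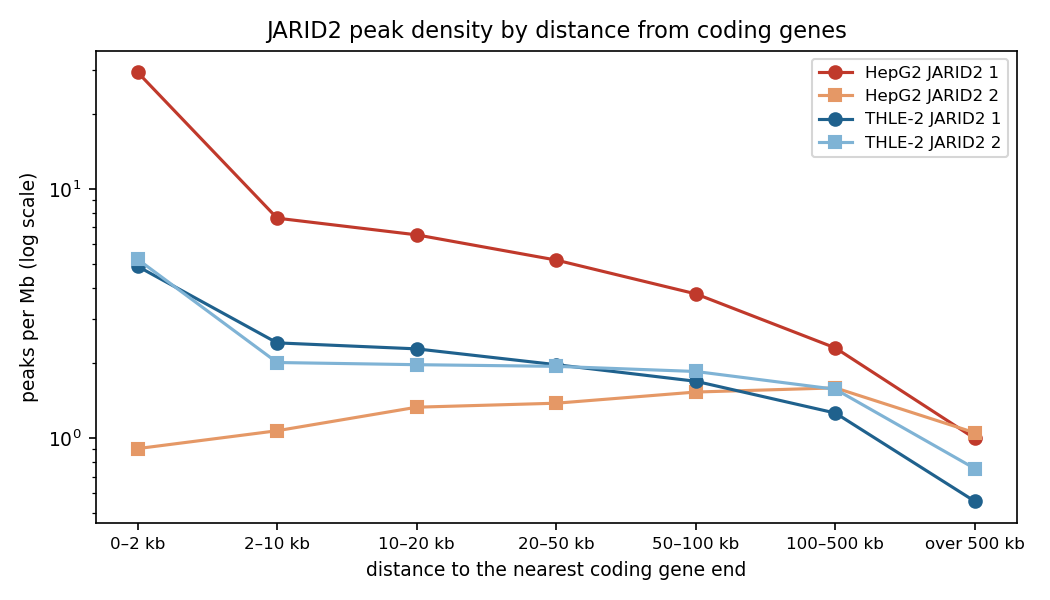
Peaks per Mb of annotated territory (log axis) by distance to the nearest coding gene end, for the 4 JARID2 lists. HepG2 replicate 1 falls from 29.4 peaks per Mb within 2 kb to 0.996 beyond 500 kb, HepG2 replicate 2 stays between 0.907 and 1.59.

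At the limit, peaks on both sides had few tags. The 3 peaks just inside the rule lay, after rounding, 10 kb from TVP23A, NDUFB5 and PCOLCE2, with 12, 10 and 11 tags and folds of 8.53, 11.71 and 9.08. The 3 just outside it lay 10, 9.99 and 9.98 kb from BOLA3, DCUN1D3 and LYZL2, with 9, 12 and 9 tags and folds of 7.91, 9.05 and 13.8. These values are a description of the limit.

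As peaks, the far ones were narrow and shallow. Their median width was 558 bp and their median tag count 11, with 42% at 10 tags or fewer. The 7089 peaks of the list within 10 kb had a median width of 745 bp and 17 tags, with 15.6% at 10 tags or fewer. The MACS score, 10 times the negative log10 of the peak's p, had a median of 59.2 in far peaks and 64.43 in the others. The fold went the other way, with a median of 10.73 in far peaks and 9.38 in the others. A false discovery rate of at most 1% was reached by 31.9% of far peaks and 48.5% of the others. Far peaks inside and between genes were close in these measures, with median folds of 10.5 inside and 11.08 between, and median widths of 563 and 553 bp. Since the peaks come from 1 library, these differences have no replicate check.

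The far peaks of highest fold inside genes fell in genes of several kinds. AGAP1, which encodes a GTPase-activating protein of endosomes, held the highest fold at chr2:235670000-235671223, with 45 tags and 31.05-fold enrichment, 176 kb from the nearest end. GNB4 followed with 25.03-fold, and CDH2, which encodes the adhesion protein N-cadherin, had 18 tags and 24.15-fold enrichment. RALGAPA2, which encodes a subunit of a Ral GTPase-activating complex, stood at 23.54-fold. SLFN12L, APBA1, MCU and STK4 all had 22.43-fold enrichment on 22, 21, 17 and 16 tags. APBA1 encodes a synaptic adaptor, MCU the pore of the mitochondrial calcium uniporter and STK4 a kinase of the Hippo pathway. Of these 8 peaks, only those in GNB4 and SLFN12L overlapped a peak of any other list. Equal folds on different tag counts recur among far peaks, as at 17.25 near OLIG2 and OTOS on 14 and 12 tags. A rank by fold is therefore coarse, and whether the input value behind it met a lower limit was not tested.

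The far peaks of highest fold between genes lay in part far from any gene. The highest fold, 44.85 on 45 tags, was at chr1:143263980-143265223, 637 kb from H3-7, and a second peak 652 kb from H3-7 had 34.5-fold enrichment. Another at chr1:171761729-171762552, 19.1 kb from METTL13, had 68 tags and 39.85-fold enrichment. On chromosome 16 a peak of 32.78-fold lay 3877 kb from any coding gene end, and on chromosome 22 one of the same fold lay 13.6 kb from its nearest gene. The peaks near H3-7 lay among 14 far peaks with gaps of at most 50 kb, and that on chromosome 16 among 4. The peak near NBPF1, a gene of a family with many near-identical copies, had 25 tags and 30.83-fold enrichment and a THLE-2 JARID2 replicate 2 peak of 14.55-fold on it. Peaks at copied sequence rest on reads that the authors could place uniquely, per the file headers, so such a peak is uncertain. Whether the other peaks named here lie in copied sequence was not examined.

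Some far peaks lay in runs. With gaps of at most 50 kb, 370 runs of 3 or more held 1323 far peaks, 15.4% of all, while 5245 far peaks stood alone. Runs were not counted among the nearer peaks or in the other lists, nor set against an even spread. The share is therefore a description and not a measure of clustering. The longest held 15 peaks over 64.1 kb at chr4:49091267-49155365, with 945 tags and folds from 6.53 to 22.39. The next held 14 peaks over 87.3 kb at chr1:143184498-143271796, with 240 tags and folds from 13.15 to 44.85, and then came 10 peaks at chr10:41859086-41915190 and 9 at chr16:34571611-34596525. These 4 runs lie between genes, in the satellite-rich bands beside the centromeres of their chromosomes. No other list had a peak in the chromosome 1 run, while HepG2 JARID2 replicate 2 had 4 peaks in the chromosome 16 run and 2 in the chromosome 4 run, and EZH2 replicate 2 had 5 in the chromosome 4 run. The next run held 8 peaks at LANCL2 and VOPP1, 5 of them inside these genes. Then came 7 peaks with 183 tags between genes at chr2:89828320-89840684, 519 kb from a coding gene end, and 7 with 76 tags at CNOT4 and NUP205, 5 of them inside. A run at YAP1, the transcription co-activator of the Hippo pathway, held 6 far peaks with 1003 tags, 3 of them inside the gene. Beside YAP1 lay the widest far peak of all, at 7552 bp with 334 tags but only 3.89-fold enrichment. NUP98, a nuclear pore gene, held 6 far peaks with 680 tags and folds from 4.4 to 6.83.

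HepG2 JARID2 replicate 2 met almost none of the far peaks, so nearly all of them rest on 1 library. Only 30 of the 8598 overlapped a replicate 2 peak by at least 1 bp, 0.349% (0.245 to 0.498%), against 0.197% of the peaks within 10 kb, where the share over all peaks of the list was 0.28%. Of the 30, 23 lay between genes (0.569% of those) and 7 inside (0.154%). Replicate 2 peaks covered the summits of 21 far peaks, a share 2.82 times their share of the far territory. Within 10 kb that ratio was 2.38. Among far peaks it was 5.88 between genes, on 19 summits, and 0.45 inside, on 2. Runs of 3 or more held 14 of the 30, and 5 were in the 4 longest runs. The 30 had a median of 29.5 tags, and their median distance to a coding gene end was 125 kb. One lay 768 kb from NR2F2, a nuclear receptor gene, with 15.53-fold enrichment in replicate 1 and 9.63-fold in replicate 2. Another lay inside BLVRA, the gene of biliverdin reductase, with 15.36-fold and 10.21-fold. In the other direction, 30 of the 3516 far peaks of replicate 2, 0.853%, overlapped one of replicate 1. The share was 0.839% among far peaks at a false discovery rate of at most 1%, 0.22% outside runs of 3 or more, and 0.221% where the overlap had to cover at least 50% of the peak.

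Overlap with THLE-2 JARID2 was also rare, and rarer than nearer to genes. Of the far peaks 62 (0.721%) overlapped replicate 1 and 46 (0.535%) replicate 2, against 2.44% and 3.26% of the peaks within 10 kb, where the shares over all peaks were 1.5% and 1.77%. At least 1 THLE-2 JARID2 list was met by 1.22% of far peaks, against 5.36% of nearer peaks and 3.09% of all. The share of far summits that THLE-2 JARID2 replicates 1 and 2 covered was 5.01 and 3.87 times their share of the far territory. Within 10 kb those ratios were 8.08 and 11.8. Only 3 far peaks, 0.0349%, overlapped both THLE-2 JARID2 lists, against 0.339% of the nearer peaks (0.172% of all peaks). These were at KHDC1, inside BICRAL and 10.9 kb from RAB11FIP4. BICRAL, a subunit gene of a SWI/SNF remodelling complex, had 8.53-fold enrichment in HepG2 replicate 1 and 5.42-fold and 8.06-fold in the THLE-2 replicates. The peak near RAB11FIP4 was 1776 bp wide, with 8.03-fold in HepG2 replicate 1 and 5.94-fold and 6.59-fold in THLE-2. No far peak was found in all 3 other JARID2 lists, which allows a share of up to 0.0349% by 3 counts of the total, and up to 0.0447% by the Wilson interval. At a false discovery rate of at most 1% the THLE-2 replicate 2 share was 1.02%, and with overlap of at least 50% of the peak the THLE-2 replicate 1 share was 0.442%.

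**Figure D3:**
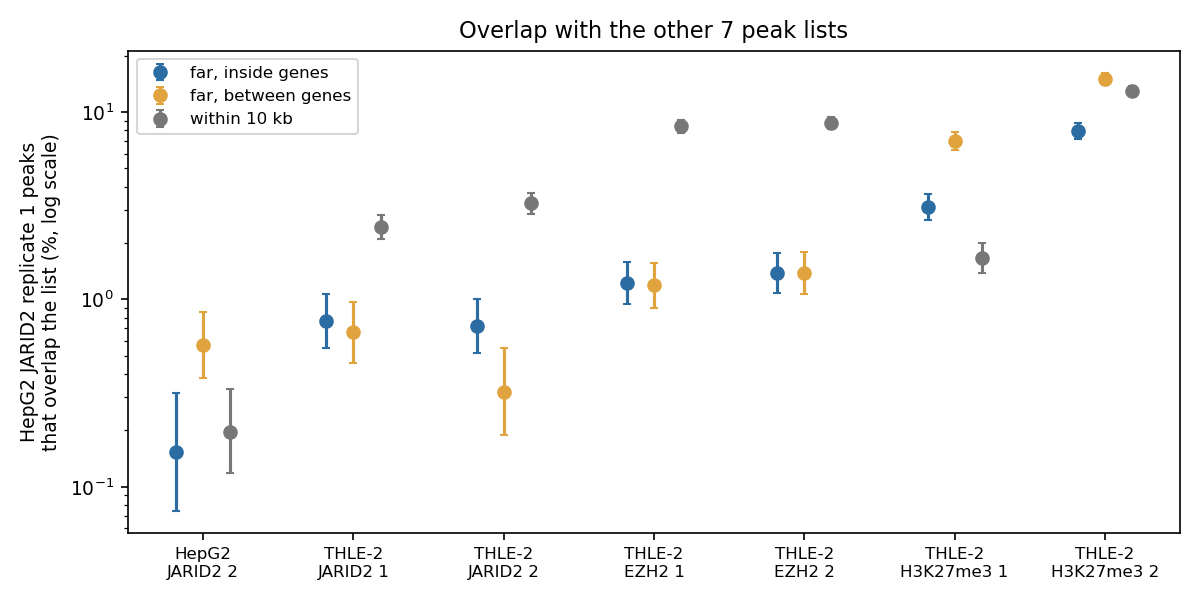
Share of HepG2 JARID2 replicate 1 peaks (percent, log axis) that overlap each of the other 7 lists, for far peaks inside genes, far peaks between genes and peaks within 10 kb of a gene end, with 95% Wilson intervals. Far peaks lie below the nearer ones for THLE-2 JARID2 and EZH2 and above them for H3K27me3 replicate 1.

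EZH2 of THLE-2 met few far peaks, and those that both replicates met were wider than most. Of the far peaks 104 (1.21%) overlapped EZH2 replicate 1 and 119 (1.38%) replicate 2, against 8.38% and 8.7% of the nearer peaks, where the shares over all peaks were 4.45% and 4.69%. EZH2 peaks cover little of the far territory, and the share of far summits they covered was 19.3 and 14.4 times the share of territory, against 7.47 and 7.37 times within 10 kb. Read from the other list, 12% of the far EZH2 replicate 1 peaks and 5.19% of those of replicate 2 overlapped a HepG2 far peak. Both EZH2 lists held 78 far peaks, 0.907%, against 6.98% of the nearer peaks and 3.65% of all. These 78 had a median width of 838.5 bp and 20.5 tags, against 556 bp and 11 tags in the 7354 far peaks that met no other list. Of the 78, 26 (33.3%) had a summit within 2 kb of an annotated coding start inside a gene. That share was 2.53% of the 7354, and 20.8% of all peaks of the list lay that near any coding start. Within 2 kb of a lncRNA gene end lay 16 of the 78 (20.5%), against 5.63% of the 7354 and 10.4% of all peaks. At a false discovery rate of at most 1% the EZH2 shares were 2.7% and 3.14%.

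By fold, the leading peaks of these 78 were in SLFN12L with 22.43, near ACBD5 with 22.19, in PHF24 with 18.97, in TBC1D30 with 15.65 and in MINAR1 with 15.53. The peak near ACBD5 met EZH2 peaks of 15.19-fold and 5.89-fold. Another of the 78 lay 11.5 kb from TFAP2A, a neural crest transcription factor gene, with 14.66-fold in HepG2 JARID2 replicate 1, against 16.45-fold and 15.11-fold in the EZH2 replicates and 14.2-fold in H3K27me3 replicate 2. One lay 10.4 kb from SKOR2, a transcriptional co-repressor gene of Purkinje cells, with 15.36-fold in HepG2 JARID2 replicate 1, against 5.69-fold and 4.75-fold in the EZH2 replicates. One more was inside FGF14, at a start window with 50 CpG, with 13.41-fold, against 10.96-fold and 8.94-fold in the EZH2 replicates. The peak between genes nearest to FLT1, a VEGF receptor gene, had 14.63-fold, against 16.67-fold and 6.08-fold in EZH2.

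The 2 H3K27me3 replicates differed in where they met the list. Replicate 1 overlapped 424 far peaks (4.93%), against 1.66% of the nearer peaks and 3.46% of all, and replicate 2 overlapped 966 (11.2%), against 13% of the nearer peaks and 12% of all. Between genes the shares were 6.98% and 15%, and inside genes 3.11% and 7.87%. H3K27me3 lists are long, and their ratio of far summits covered to territory covered was 1.49 and 2.33. Both H3K27me3 lists held 318 far peaks (3.7%), against 1.37% of the nearer peaks (2.65% of all), and 311 of them met no EZH2 peak. Those 311 lay inside genes in 34.1% of cases and had a median of 11 tags, and 2 of them were at a coding start. Examples between genes are a peak 22.5 kb from OLIG2, a neural transcription factor gene, with 17.25-fold, against 7.97-fold and 5.5-fold in the H3K27me3 replicates, and 1 near OTOS with 17.25-fold, against 7.38-fold and 5.6-fold. Inside SCG3, a secretory granule gene, a far peak of 17.25-fold met H3K27me3 peaks of 7.72-fold and 8.91-fold.

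No far peak met more than 4 of the 7 other lists, and 3 met 4. One lay in SLFN12L with 22.43-fold, against 6.85-fold and 5.65-fold in the EZH2 replicates and 11.99-fold and 14.05-fold in the H3K27me3 replicates. Another lay in NR5A2, a nuclear receptor gene active in liver, with 28 tags and 6.35-fold, against 7.17-fold and 6.74-fold in EZH2 and 9.47-fold and 6.95-fold in H3K27me3. The remaining one, 113 kb from INSIG2, a gene of the sterol-sensing machinery, had 13.97-fold in HepG2 JARID2 replicate 1, 10.51-fold in HepG2 replicate 2, 9.98-fold and 5.4-fold in EZH2 and 7.45-fold in H3K27me3 replicate 2. None of the 7 lists was met by 85.5% of the far peaks, against 78.9% of the nearer peaks, where 17.4% of all peaks met at least 1.

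Stronger far peaks met EZH2 more often and H3K27me3 replicate 1 less often. Ranked by score into 4 groups of equal size, the strongest met at least 1 EZH2 list in 4.37% of cases, and the next ones in 1.16, 0.791 and 0.419% (5.49% over all peaks of the list). Summits at an annotated coding start inside a gene numbered 141 (6.56%) in the strongest group. They numbered 39, 37 and 38 (1.81, 1.72 and 1.77%) in the others, where 20.8% of all peaks of the list lay at a coding start. The share within 2 kb of a lncRNA gene end was 8.23, 5.82, 4.7 and 5.07%, against 10.4% of all peaks. The H3K27me3 replicate 1 share ran the other way, at 3.12, 4.93, 6.14 and 5.53%, and that of replicate 2 was 11, 11.1, 11.7 and 11.2%.

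Annotated starts away from gene ends held far peaks more densely than the territory around them. Of the far peaks inside genes on chromosomes with start windows, 255 of 4351 (5.86%, 5.2 to 6.6%) had their summit within 2 kb of an annotated coding start, where 0.989% of the territory lies and where the share over all peaks of the list was 20.8%. The share was 0.64% in the far peaks of HepG2 replicate 2, 2.47% and 2.49% in THLE-2 JARID2, 30.6% and 11.8% in EZH2, and 1.12% and 1.51% in H3K27me3. For lncRNA genes, 512 far peaks (5.95%) had their summit within 2 kb of an annotated end, where 3.7% of the territory lies and 10.4% of all peaks of the list did. The share was 8.05% between genes and 4.1% inside genes, and 3.38% in HepG2 replicate 2. Far summits lay inside lncRNA gene bodies in 14.1% of cases, where 15.7% of the territory lies. By class the shares were closer to the territory, at 6.54% against 6.72% inside coding genes and 22.6% against 21.3% between them.

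CpG-rich starts lay under a peak more often than other starts, though most of them lay under none. Windows with at least 55% G or C and an observed over expected CpG ratio of at least 0.65 are called CpG-rich here, limits chosen after the data were seen. Among start windows of lncRNAs more than 10 kb from coding gene ends, 108 of 658 CpG-rich ones (16.4%, 13.8 to 19.4%) lay under a HepG2 JARID2 replicate 1 peak, against 48 of 7647 others (0.628%, 0.474 to 0.831%), where the share of all lncRNA windows was 5.4%. Among coding starts at that distance the shares were 25.5% of 714 CpG-rich windows and 2.26% of 1943 others, where the share of all coding windows was 13.6%. Starts within 10 kb showed the same contrast, with 22% of CpG-rich and 3.21% of other lncRNA windows and 21.8% and 4.11% of coding windows, so it is not particular to the far starts. Not one of the 658 or the 714 CpG-rich windows lay under a HepG2 JARID2 replicate 2 peak, which allows shares of up to 0.456% and 0.42% (3 counts of the total). THLE-2 JARID2 peaks lay on 0.912% and 1.98% of the CpG-rich lncRNA windows, against 0.34% and 0.118% of the others. EZH2 peaks lay on 7.45% and 7.9% of them, against 0.497% and 0.536% of the others. H3K27me3 replicate 1 ran the other way with 1.37% of CpG-rich and 6.85% of other lncRNA windows, and replicate 2 had 13.1% and 11.7%.

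**Figure D4:**
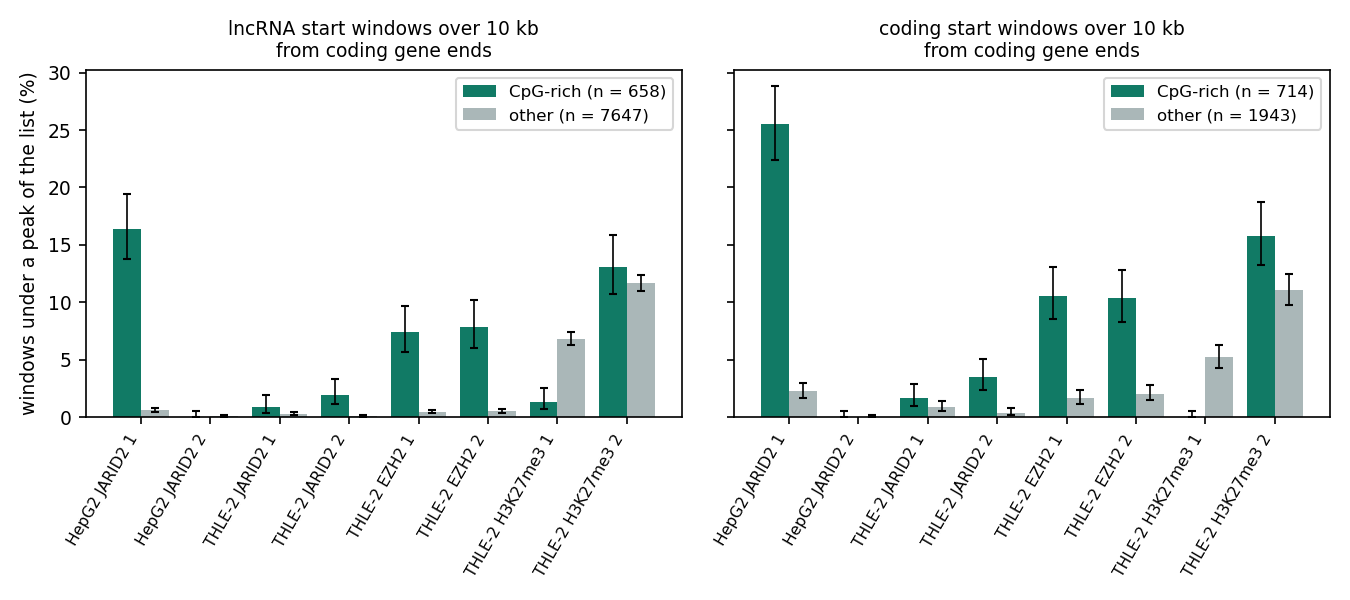
Share of 300-bp start windows under a peak of each list (percent, with 95% Wilson intervals), for lncRNA starts (left) and coding starts (right) more than 10 kb from coding gene ends, in CpG-rich windows and others. HepG2 JARID2 replicate 1 covers 16.4% and 25.5% of CpG-rich windows, HepG2 JARID2 replicate 2 none.

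Windows under far peaks differed in letters from windows at the same distance without a far peak, and resembled those under the other peaks of the list. The 153 lncRNA windows under a far peak had a median of 68.7% G or C and 30 CpG, against 45.7% and 3 CpG in windows at the same distance without one. The 540 lncRNA windows under the other peaks of the list had 73% and 34 CpG, so these letters are not particular to far peaks. The motif CCGCCG, searched on both strands, was found in 54.9% of them, against 5.36% of the windows without one, 63.3% of those under the list's other peaks and 15.3% of all lncRNA windows. The motif GAGAGA, also on both strands, was found in 23.5%, against 25.1% of the windows without one, 17.2% under the other peaks and 24.3% of all. CGCGCG, likewise, was found in 32%, against 2.08% of the windows without one, 38.9% under the other peaks and 7.84% of all, and matches of the motifs can share letters. The 221 coding windows under a far peak had 72.3% G or C and 34 CpG, against 51.3% and 6 CpG in those without one and 72% and 34 CpG under the list's other peaks. In all, 289 far peaks overlapped a start window, 3.36% of the 8598, of which 8193 lay on chromosomes with windows. The same share was not counted over all peaks of the list. Windows were at hand for 79.2% of coding genes and for 11383 of 18177 lncRNA genes, and starts on chromosome 8 were not analysed here.

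Among lncRNA starts under far peaks, EMC3-AS1 had the highest fold, 18.98 on 13 tags, followed by LOC105371710 and PRICKLE2-DT with 17.25 on 20 and 12 tags. The window of PRICKLE2-DT holds 33 CpG, and its peak lay 70.1 kb from the nearest coding gene end, that of ADAMTS9. LINC00526 and LINC00667 share a bidirectional start under a peak of 15.53-fold with windows of 35 and 38 CpG. LINC01081 and LINC02135 share one 223 kb from FOXF1, with 14.63-fold in HepG2 JARID2 replicate 1, against 11.96-fold in EZH2 replicate 1 and 6.66-fold in H3K27me3 replicate 2. HYMAI, an imprinted lncRNA, starts in the same window as PLAGL1, the imprinted zinc finger gene around it, under a peak of 10 tags and 14.22-fold enrichment, with 39 CpG. These genes were chosen after their values were seen.

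MicroRNA hairpins lay under a far peak in 7 of 1558 cases. The hairpins in the far territory or under the other peaks of the list were not counted. The 7 are therefore neither few nor many by these data. A pair of them, MIR193A and MIR193B, encode microRNAs of 1 family, and their 3p arms share the seed, bases 2 to 8, shown in capitals. They are printed because they were the only far-peak hairpins with a shared seed.
hsa-miR-193a-3p: aACUGGCCuacaaagucccagu
hsa-miR-193b-3p: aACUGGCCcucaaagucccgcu
MIR193A lay under a peak of 1904 bp with 67 tags and 6.24-fold enrichment, 20.5 kb from RAB11FIP4, in the same stretch of chromosome 17 as the peak that both THLE-2 JARID2 lists held. MIR193B lay under a peak of 772 bp with 17 tags and 6.03-fold enrichment, 36.6 kb from MRTFB. Neither peak met another list.

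Far peaks lay inside 2933 coding genes, 27.2% of the 10778 genes with territory more than 10 kb from all ends. Of these genes 1896 held 1, 644 held 2 and 65 held 5 or more. Genes with a far peak were long, with a median of 122 kb against 59.7 kb over all genes with such territory. BCAS3, which encodes a cytoskeletal protein, held the most with 12 peaks and 141 tags over 715 kb, all between 7.76-fold and 13.72-fold. The other JARID2 lists had 1, 5 and 2 far peaks in BCAS3, in HepG2 replicate 2 and THLE-2 replicates 1 and 2, and EZH2 and H3K27me3 had none. MAD1L1, a spindle checkpoint gene, held 9 at 22.7 peaks per Mb, and GSE1 and RABGAP1L held 8 each. THLE-2 JARID2 had 3 and 4 far peaks in MAD1L1 and 5 and 4 in GSE1, and EZH2 had none in either. KAZN, PTPRD, SUGCT and RGS7 held 7 each. PTPRD, a receptor phosphatase gene of neurons, held 18 and 38 far H3K27me3 peaks of replicates 1 and 2, the only one of the 8 with over 4 in a replicate.

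Polycomb and Trithorax genes held far peaks most densely of the 5 gene lists examined. Of the 50 with far territory 25 held one (50%), at 10.6 peaks per Mb, against 27.2% and 4.78 per Mb over all coding genes. Of the same 50, 6 held a far peak of HepG2 JARID2 replicate 2, and 8 held one of each THLE-2 JARID2 replicate. Over all 10778 coding genes with such territory, those counts were 1043 for HepG2 replicate 2, and 1508 and 1475 for THLE-2. Peaks per Mb of these other lists were not measured by gene list. KMT2C and ASXL2, a methyltransferase and a Polycomb cofactor gene, held peaks of 17.25-fold and 13.8-fold, and PCGF6, a subunit gene of Polycomb complex 1, held one of 15.29-fold. CBX8, another such subunit gene, was the nearest gene to a peak of 87 tags and 15.61-fold, 15.4 kb away. Neuronal adhesion and synapse genes, with 86 of 118 (72.9%), held far peaks most often but at 2.1 per Mb, over 103 Mb of such territory. Their highest folds were in CNTNAP2 with 20.7, KCNMA1 and OPCML with 18.98, and CDH13 with 17.25.

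Developmental transcription factor genes held far peaks in 23 of 57 cases (40.4%) at 3.24 per Mb. Of that list 46.4% were nearest to a far peak between genes, against 12.7% of all coding genes. The same share was 54.2% for neuronal genes, 29.5% for liver factors, 27% for Polycomb and Trithorax genes and 11.3% for hepatocyte genes. The space between genes around each list was not measured. CUX2, a cortical neuron factor gene, held 5, the strongest at 17.07-fold, and PAX5, the B cell factor gene, held one of 14.49-fold that met 2 other lists. MECOM was nearest to a peak of 20.7-fold 120 kb away, and PAX2 to one of 17.2-fold 63.6 kb away. Liver transcription factors held far peaks in 9 of 27 cases (33.3%) at 4.88 per Mb, among them NR5A2 with 3, the strongest at 15.65-fold, RORA with 3 and PPARGC1A with 1. A peak 31.2 kb from CEBPA, the hepatocyte and fat cell factor gene, had 13.66-fold enrichment. Genes of hepatocyte function held far peaks least often of the 5 lists, in 6 of 61 cases (9.84%), but at 2.72 per Mb, with C9 and C5 of complement at 13.22-fold and 12.64-fold and ACACB, of fatty acid metabolism, at 12.39-fold. Genes of a list that overlap share a peak, and lists differ in gene length, so the counts describe the lists without a test.

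**Figure D5:**
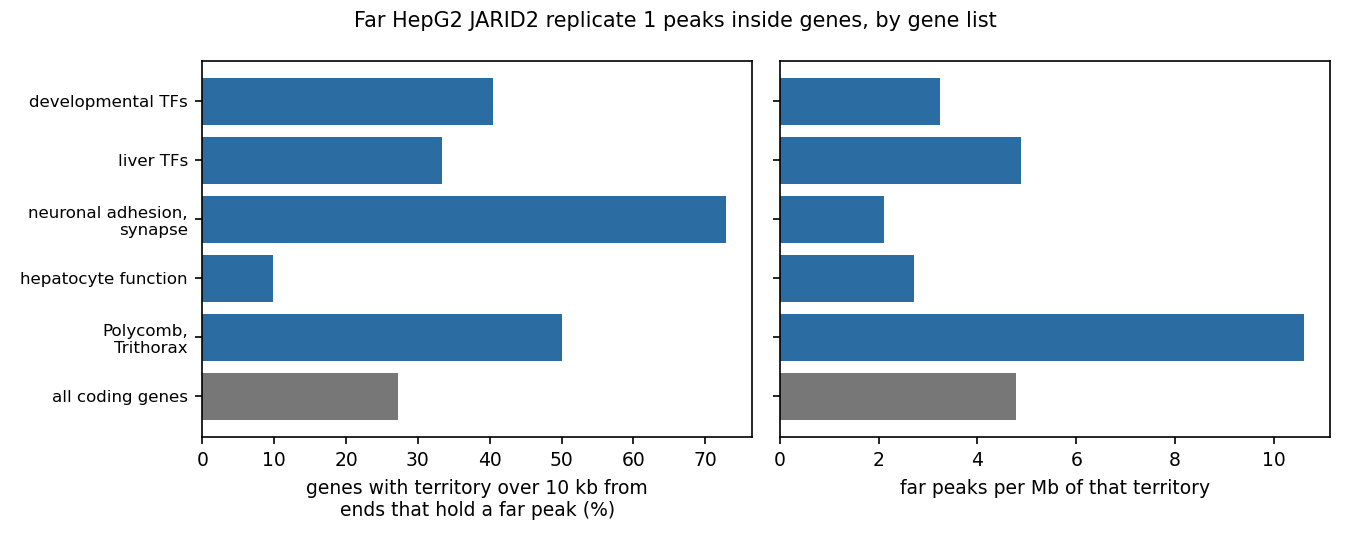
Left, share of genes with territory more than 10 kb from coding gene ends that hold a far HepG2 JARID2 replicate 1 peak (percent); right, far peaks per Mb of that territory, for 5 gene lists and all coding genes. Polycomb and Trithorax genes reach 10.6 per Mb against 4.78 for all genes, and neuronal genes 72.9% of genes but 2.1 per Mb.

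Far peaks were spread unevenly over chromosomes. Per Mb of far territory, chromosome 19 held 7.55 and chromosome 17 held 7.19, against 3.43 over the whole span, and chromosome X held 1.54, chromosome 14 held 1.78 and chromosome 4 held 1.81. HepG2 JARID2 replicate 2 had 0.394 on chromosome 19 and 0.839 on chromosome 17, against 1.4 over the span, so both chromosomes stood above the span in replicate 1 and below it in replicate 2. THLE-2 JARID2 replicate 1 had 2.4 and 2.29 on chromosomes 19 and 17, against 1.49 over the span, and replicate 2 had 1.36 and 1.42, against 1.6 over the span. The replicates of both lines thus lay on opposite sides of their span value on chromosomes 19 and 17. On chromosomes X, 14 and 4 every JARID2 list lay below its span value. HepG2 replicate 2 had 0.662, 0.34 and 0.69 there. THLE-2 JARID2 replicate 1 had 0.135, 1.13 and 1, and replicate 2 had 0.113, 1.39 and 1.51.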

How the data were processed

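Peak lists were deposited for 8 IP libraries, each called against its own input. Per the submitters' processing notes the tools were cutadapt, Bowtie2 and MACS 1.4.2 on GRCh38. Per the file headers, MACS used a p cutoff of 1e-05, kept no more than 1 tag at a position and scaled the larger of IP and input down, and replicates were not pooled. Each deposited row gives a tag count, a score (10 times the negative log10 of p), a fold enrichment, which is a ratio to local input, and a false discovery rate in percent. Peak positions are 1-based as deposited. Peaks outside chromosomes 1 to 22 and X were left out.

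Distances ran from peak edges to both ends of 19970 RefSeq coding genes. Territory was measured on a grid of 100 bp. Overlap meant at least 1 bp. Shares have Wilson 95% intervals, and libraries were compared by exact permutation (SciPy 1.17.1). Start windows and microRNAs came from RefSeq GRCh38.p14. Distances and overlaps were tested on 2000 simulated regions, with 0 mismatches. Alternatives were distances of 5 and 20 kb, distance from the summit, stricter false discovery, other overlap rules and leaving out libraries. The far peaks, gene lists and comparisons were chosen with earlier results of these data known. Named genes followed a rule: the 8 highest folds inside and between genes, the 8 genes with most far peaks, up to 8 peaks in most other lists, up to 4 genes of each list and the 3 peaks on either side of the limit. Other named genes were chosen after their values were seen. No genome sequence was used, so peaks are given by position.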

Additional observations from a re-analysis of the deposited data

Results flagged for a closer look

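The HepG2 JARID2 replicate 1 list held 51 of its 15738 deposited peaks outside chromosomes 1 to 22 and X. HepG2 JARID2 replicate 2 held 15 of 4090 there, THLE-2 JARID2 replicate 1 held 5 of 5356 and EZH2 replicate 1 held 31 of 2112. The 51 enter no comparison here, and the distance rule was not applied to them.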

How the results depend on the processing

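With distances above 5 and 20 kb, 64.9% and 41.9% of the peaks were far, and 54.1% and 50.7% of these lay inside genes. At a false discovery rate of at most 1%, 44.4% were far. That limit gave overlaps of 0.839% with HepG2 JARID2 replicate 2, 1.02% with each THLE-2 JARID2 list, 2.7% and 3.14% with EZH2 and 3.58% with H3K27me3 replicate 1. Overlap of at least 50% of the peak gave 0.221% with HepG2 JARID2 replicate 2 and 0.442% and 0.372% with THLE-2 JARID2. Summits within 1 kb gave 0.512% with HepG2 JARID2 replicate 2 and 3.9% and 9.08% with H3K27me3. Without runs of 3 or more, an alternative chosen after seeing the data, 0.22% overlapped HepG2 JARID2 replicate 2. The cause of these moves was not tested. The far share of HepG2 minus THLE-2 JARID2 turned to 0.275 points above 20 kb, and ranged from -16.2 to 15.3 points when each library was left out, with 0.989 without THLE-2 replicate 2. With the strongest 2000 peaks of each list it was -10.8 points. With the replicate number as a block it was -0.461 points (exact permutation within pairs, two-sided p = 1, where the smallest possible is 0.5), and the numbers only name samples. Far peaks of few tags limit what overlap at this depth can show.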
